A study of Mus musculus with 2 samples.

Results

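Dendritic cells capture antigen in a tissue, load peptides onto MHC class II molecules and carry them to lymph nodes, where they activate T cells. They arise from Flt3-dependent progenitors, use the transcription factor Zbtb46, and raise the chemokine receptor Ccr7 when they mature and leave the tissue. Conventional dendritic cells fall into a cross-presenting type 1 (cDC1), marked by Xcr1 and Clec9a, and a type 2 (cDC2), marked by Cd209a, Clec10a and Sirpa. In tumours they are rare cells among many macrophages, which share MHC class II but make the complement proteins C1qa, C1qb and C1qc.

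Dendritic cells of the mouse prostate tumours were chosen by a rule on their own UMI counts (unique molecular identifiers, 1 per captured transcript). A cell had to hold more than 200 and fewer than 7000 genes, under 15% mitochondrial UMIs and at least 1000 UMIs. The sum of H2-Aa, H2-Ab1 and Cd74 had to reach 30 per 10000 UMIs, the sum of the C1q genes had to stay under 5 per 10000, at least 1 UMI of Flt3, Zbtb46, Ccr7, Clec9a or Cd209a was required, and the B cell genes Cd79a and Ms4a1 had to be at 0. This rule found 168 members among 21564 barcodes. Of the cells within the same limits, 109 of 9854 (1.106%, Clopper-Pearson 95% interval 0.9091 to 1.333) were members in DoubleTg and 59 of 9262 (0.637%, 0.4853 to 0.8209) in TripleTg. The levels of the genes in the rule are given below as a description only.

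DoubleTg mice carry hHGFtg, a human HGF transgene expressed ubiquitously, and H11hMET/+, a human MET transgene that the prostate epithelial Cre of PBCre4 switches on; the tissue was labelled prostatic adenocarcinoma. TripleTg mice carry the same alleles plus Ctnnb1 L(Ex3)/+, in which Cre removes an exon and stabilizes beta-catenin, and their tissue was labelled prostatic carcinoma. The probasin promoter of PBCre4 drives Cre in prostate epithelium. Age, and the number of mice behind each library, are not given in the sources used here. Each genotype is 1 library, so genotype, animal, dissection and library cannot be told apart, no test between genotypes was possible, and every interval covers counting error only.

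The label was less sure for some members than for others. Values of the rule genes follow from the choice of members, so they describe the members and do not test the label. Only 1 of the 5 dendritic genes had a UMI in 24 of 109 DoubleTg and 28 of 59 TripleTg members. Every member had H2-Aa, and the median sum of H2-Aa, H2-Ab1 and Cd74 was 598 per 10000 UMIs in DoubleTg and 423 in TripleTg. Ccr7 had a UMI in 101 of 109 DoubleTg and 49 of 59 TripleTg members, Flt3 in 61 and 18, Zbtb46 in 44 and 9, Clec9a in 26 and 8, and Cd209a in 12 and 12. Ccr7 alone of these 5 genes admitted 19 members in DoubleTg and 20 in TripleTg, and exactly 1 UMI of the 5 genes admitted 2 and 13. Just inside the MHC class II limit lay cells with 32.6 (DoubleTg) and 30.3 (TripleTg) per 10000, and just outside it cells with 28.8 and 29.5. For the C1q limit the nearest members had 1.22 and 4.48 per 10000 and the nearest cells outside it 5.25 and 5.51. No barcode was shared between members of the 2 libraries, against 30 shared over all barcodes. Of the T or NK cell markers, Cd3e, Cd3d, Cd3g and Nkg7 had 2, 3, 2 and 2 UMIs in all DoubleTg members together and 0 in TripleTg. The T or NK cell list, carried by the interleukin 7 receptor Il7r, summed to medians of 4.27 (0 to 23.4) and 2.24 (0 to 30.7) per 10000 over all members, and the innate lymphoid list, carried by Il7r and the receptor Kit, to 5.69 (0 to 27.2) and 2.9 (0 to 38.7). Il23r and Il22 of the innate lymphoid list were at 0 in both libraries. Of the neutrophil markers, S100a8, S100a9 and Retnlg had 0 UMIs in DoubleTg and 4, 5 and 2 in TripleTg, where the highest cell reached 8.99 per 10000 over the list. The plasmacytoid marker Siglech had a UMI in 3 of 90 and 3 of 35 members after the screen described next. The plasmacytoid list had UMIs of 11 and 8 of its 12 genes there and summed to medians of 2.19 (0 to 90.9) and 4.79 (0.732 to 26) per 10000. It holds Ly6d, which had a UMI in 7 of 90 and 33 of 35 of these members, with medians of 0 and 2.57 per 10000. Ly6d was also far higher in the epithelial cells of TripleTg, as given below. The sum without Ly6d was not taken, so the higher TripleTg median is not read as a plasmacytoid trait.

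Some members also carried the RNA of another cell type. In 19 DoubleTg and 24 TripleTg members the summed keratins and Epcam, or the summed collagens, Dcn and Lum, reached 20 per 10000 UMIs. Their median depth was 42432 UMIs in DoubleTg and 13488.5 in TripleTg (range 1386 to 67006), against 16293 and 10135 in the remaining 90 and 35 members, and their MHC class II sum was lower (155 and 173 per 10000, against 651 and 510). The doublet caller Scrublet marked 11 of the 19 DoubleTg cells and none of the other DoubleTg members. In the TripleTg library it marked 1 of 9262 cells and so gave no usable call. The comparisons below were therefore also made on the 125 screened members, those under both limits, a choice made after the data were seen, and these values lead where the sets differ. In the screened members the keratin sum still had a median of 3.61 in DoubleTg and 9 in TripleTg.

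**Figure D1:**
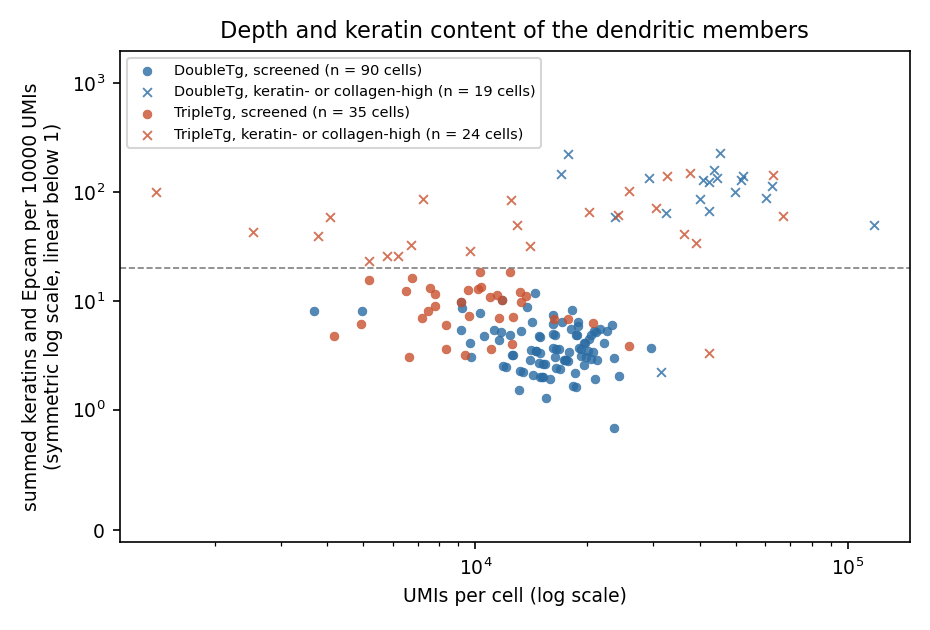
UMIs per cell (log scale) against summed keratins and Epcam per 10000 UMIs for each of the 168 members, by library. Crosses mark the 19 DoubleTg and 24 TripleTg cells at or above 20 per 10000 for keratins (dashed line) or collagens; the DoubleTg crosses lie mostly among the deepest cells, while the TripleTg crosses range from 1386 to 67006 UMIs.

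Secretory transcripts of the prostate epithelium differed most between the 2 sets of members and followed the epithelial cells of each library. Sbp, a secretory spermine-binding protein of the prostate, was at 1589 CPM (UMIs per 1000000 UMIs summed over the cells) in screened DoubleTg members, with a UMI in 90 of 90, and at 0 in TripleTg, and it was at 50903 CPM in DoubleTg epithelial cells and 0.222 in TripleTg epithelial cells. Svs4, a seminal vesicle secretory protein, was at 4.77 CPM in DoubleTg and 1328 in TripleTg members and at 225 and 23644 CPM in the epithelial cells. Ly6d, a gene of the plasmacytoid list, was at 6.82 and 271.5 CPM in the screened members and at 182.5 and 5059 CPM in the epithelial cells. Of the 10 genes with the lowest ratio among 1325 ranked genes, 7 (Sbp, Spink1, Defb50, Msmb, Sbpl, 9530002B09Rik and Erdr1) were also lower in the TripleTg epithelial cells by a wide margin. What free RNA contributed to other genes was not tested, and epithelial levels are given where they are not low. The transgene hMETtg had a UMI in 11 of 90 screened DoubleTg and 1 of 35 TripleTg members, at 8.18 and 2.69 CPM, against 427 and 40.6 CPM in epithelial cells. Ctnnb1 was at 94.8 CPM in DoubleTg and 56.4 in TripleTg screened members, and the 3′ tag does not read the deleted exon, so this checks nothing about the allele.

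Across all members, 7810 genes had at least 20 UMIs in both libraries together. Genes at least 2-fold higher in TripleTg with a 95% interval above 0 made up 11.0% of them, and genes as far lower 6.04%. With edgeR's TMM scaling, which shifted all ratios by -0.22 on the log2 scale, the share of calls that were higher fell from 64.5% to 44.1%. Among screened members, 5425 genes were measured, with 8.55% higher and 4.52% lower. Of the 178 listed genes measured there, 24 were higher and 31 lower, and 15 and 21 of these kept the call when the cell with most UMIs of the gene was left out. Ccr7 (lower) and Cd209a (higher) are among these and belong to the rule, so nothing is read from them.

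**Figure D2:**
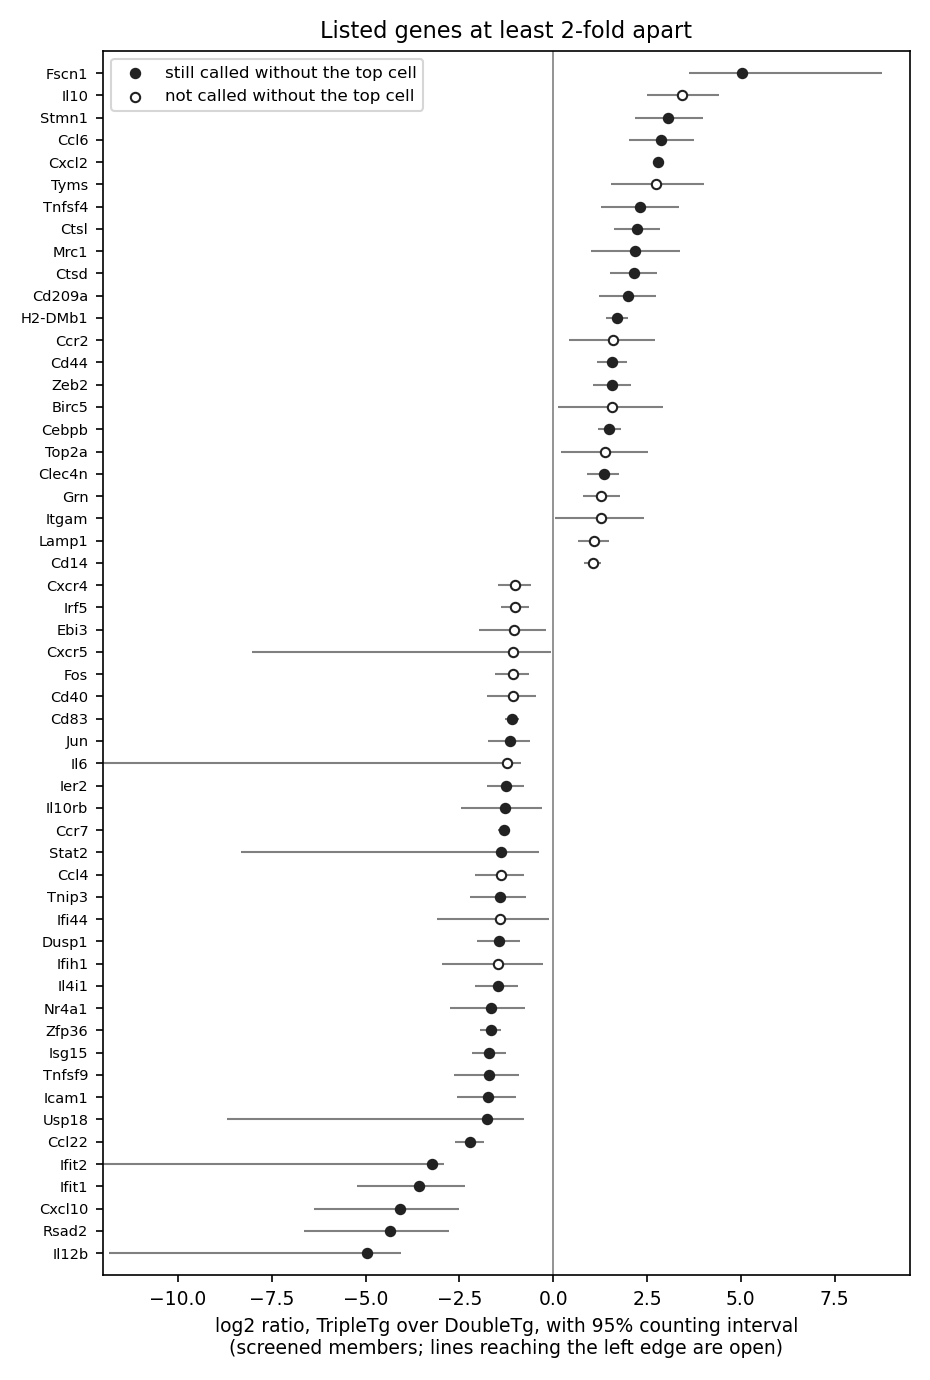
Log2 ratio of TripleTg over DoubleTg in the screened members, with 95% counting intervals, for 54 of the listed genes called at least 2-fold apart. Filled points kept the call without the cell holding most UMIs of that gene (35 genes), open points lost it.

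Among the genes of peptide loading on MHC class II, only H2-DMb1 was called apart. H2-DMb1, the beta chain of the H2-DM complex that exchanges peptides on MHC class II, was at 153 CPM in screened DoubleTg members and 495 CPM in TripleTg, a log2 ratio of 1.69 (95% interval 1.41 to 1.98). It had a UMI in 65 of 90 and 30 of 35 cells, with medians of 0.983 and 4.18 and highest cells of 8.43 and 11.1 per 10000 UMIs. The cells overlapped, but the TripleTg median lay well above that of DoubleTg. H2-DMb2, the close copy beside it on chromosome 17, went from 196 to 126 CPM (log2 ratio -0.63, -1.11 to -0.18), and how the authors' counting split reads between the copies could not be checked. H2-DMb1 lies at chr17:34153072-34160230 and H2-DMb2 at chr17:34143307-34151555 on the plus strand of GRCm38. The partner chain H2-DMa was at 458 and 632 CPM.

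The classical class II chains were abundant in both libraries and somewhat lower in TripleTg. H2-Eb1, a beta chain that the rule did not use, was at 13600 CPM in DoubleTg and 9504 in TripleTg (log2 ratio -0.52, -0.57 to -0.47), with medians of 134 and 96.4 per 10000 UMIs. The rule genes were at 14990 and 11138 CPM for H2-Aa, 13606 and 10316 for H2-Ab1, and 34813 and 26591 for the invariant chain Cd74. Of the 11 measured class II genes outside the rule, H2-DMb1 was called higher and Cd83, a maturation protein that keeps class II on the surface, lower (1460 to 685 CPM, log2 ratio -1.09, -1.28 to -0.90). With 11 genes, 1 call in each direction is near the shares over all genes, 8.55% higher and 4.52% lower. The median over the list was -0.42, against 0.098 over all genes. Of 13 measured genes for MHC class I and cross-presentation, 0 were called in either direction, with log2 ratios from -0.68 to 0.71.

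The promoter of H2-Eb1 is shown because class II promoters share the Y box, a CCAAT motif (ATTGG on either strand) that the factor NF-Y reads. It spans chr17:34305617-34305916 on the plus strand (RefSeq, GRCm38.p6), 250 bases before to 50 after the start, 5′ to 3′, with both matches in capitals; 37.4% of 32851 promoters of this length hold the motif.
H2-Eb1: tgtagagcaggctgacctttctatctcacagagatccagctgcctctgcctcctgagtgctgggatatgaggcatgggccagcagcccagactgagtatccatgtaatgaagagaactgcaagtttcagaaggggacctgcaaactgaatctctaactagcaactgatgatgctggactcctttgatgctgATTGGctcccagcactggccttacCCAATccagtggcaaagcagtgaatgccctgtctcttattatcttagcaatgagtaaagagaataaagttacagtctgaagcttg

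Ccl22 and Cxcl10, which recruit T cells, were lower in the TripleTg members. Ccl22, a ligand of Ccr4 made by mature dendritic cells (chr8:94745590-94751699, plus strand, GRCm38), was at 739 CPM in screened DoubleTg members and 159 CPM in TripleTg, a log2 ratio of -2.22 (-2.62 to -1.84). It had a UMI in 59 of 90 DoubleTg cells (median 0.825, highest 88 per 10000) and in 11 of 35 TripleTg cells (median 0, highest 22.6). In epithelial cells (median 24123 UMIs in DoubleTg, 22810 in TripleTg) a Ccl22 UMI was found in 0.326% and 0.886%. After every cell was thinned to 2000 UMIs, 27.8% of DoubleTg and 11.4% of TripleTg screened members kept one. Over the other settings tried for the members and the screened members the log2 ratio lay between -3.58 and -2.22, the first of these from cells with Xcr1 or Clec9a. In the screened cells without Xcr1 or Clec9a, outside these settings, it was -1.60 (-2.06 to -1.18). Its neighbour Ccl17, the other ligand of Ccr4, had summed levels of 384 and 403 CPM, but 86% of the TripleTg UMIs lay in 1 cell. It was found in 39 of 90 and 8 of 35 cells, and without that cell the log2 ratio was -2.72.

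Other chemokine genes moved in both directions. Of 17 measured chemokine and chemokine receptor genes, 4 were higher and 5 lower in screened TripleTg members. Ccl6, a chemokine of myeloid cells, was at 13 and 94.1 CPM (log2 ratio 2.86, 2.01 to 3.75), in 14 of 90 and 13 of 35 cells. Cxcl2, which attracts neutrophils, was at 448 and 3088 CPM (2.78), beside 180 and 310 CPM in epithelial cells, yet 71.5% of the TripleTg UMIs came from 1 cell, and without it the ratio was 1.01. Cxcl10, an interferon-induced ligand of Cxcr3, was at 136 and 8.06 CPM (-4.08, -6.37 to -2.51), in 14 and 3 cells, with 42% of the DoubleTg UMIs in 1 cell and 42.3 and 25.4 CPM in epithelial cells.

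The cytokine Il12b, a subunit of interleukin 12 and interleukin 23, was almost absent from TripleTg. It had 365 UMIs in 12 of 90 screened DoubleTg cells and 1 UMI in 1 of 35 TripleTg cells (log2 ratio -4.95, -11.84 to -4.05), and 38.4% of the DoubleTg UMIs lay in 1 cell. The inflammatory cytokine Il1b was at 998 and 1554 CPM (0.64, 0.50 to 0.78), in 64 of 90 and 27 of 35 cells. Il10, an inhibitory cytokine, was called higher, but 84.2% of its TripleTg UMIs were in 1 cell and the call was lost without it.

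Among co-stimulatory and inhibitory ligands, 1 of 10 measured genes was higher and 2 lower, against 8.55% and 4.52% of all genes. Tnfsf9, the ligand of 4-1BB on T cells, was at 115 and 34.9 CPM (-1.71, -2.65 to -0.90), in 38 of 90 and 5 of 35 cells. Cd40, through which helper T cells license dendritic cells, was at 136 and 64.5 CPM (-1.08, -1.76 to -0.47), in 61 and 17 cells. Over the other settings tried the Cd40 ratio lay between -1.96 and -0.77, so it was not 2-fold apart in all of them. Cd86, a main co-stimulator, was at 705 and 513 CPM (-0.46), and Cd274, which encodes PD-L1, at 344 and 226 CPM (-0.61), both less than 2-fold apart. Tnfsf4, the ligand of OX40, was the higher gene, with 16 and 20 UMIs in 6 cells of each library. Il4i1, an amino acid oxidase that restrains T cells, was at 218 and 78 CPM (-1.48, -2.08 to -0.93), in 49 and 7 cells, and Icam1, an adhesion molecule for T cells, at 143 and 43 CPM (-1.74), in 34 and 10 cells. Timd4, a phosphatidylserine receptor in none of the lists and named after its values were seen, was at 555 and 129 CPM (-2.10, -2.56 to -1.68), in 80 of 90 and 17 of 35 cells.

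Interferon-stimulated genes were lower in TripleTg as sums, but this rested on few DoubleTg cells. Of 14 measured genes of the list, 7 were lower and 0 higher in screened members, with a median log2 ratio of -1.18. Isg15, a ubiquitin-like protein, was at 393 and 121 CPM (-1.70, -2.17 to -1.26), with a UMI in 40 of 90 and 15 of 35 cells and 22.9% of the DoubleTg UMIs in 1 cell. Rsad2, which encodes the antiviral viperin, was at 164 and 8.06 CPM (-4.35, -6.64 to -2.78), in 10 and 2 cells. Summed over the 15 listed genes other than Ly6e, 66.3% of the UMIs of the 90 DoubleTg cells lay in 5 cells. The median cell had 2.43 per 10000 UMIs in DoubleTg and 2.73 in TripleTg, so the typical cells were not apart, while the highest cell had 228 in DoubleTg and 22.4 in TripleTg. The epithelial medians were 0.678 and 0.238 per 10000, and Isg15 was at 89.4 and 55.8 CPM there and Rsad2 at 52.6 and 29.6. Thinning all members once to 2000 UMIs each turned the list's median from -1.44 to 0.31, and in the screened members from -1.18 to -0.36. Fewer genes of the list were measured after thinning, so these medians are not of the same genes.

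**Figure D3:**
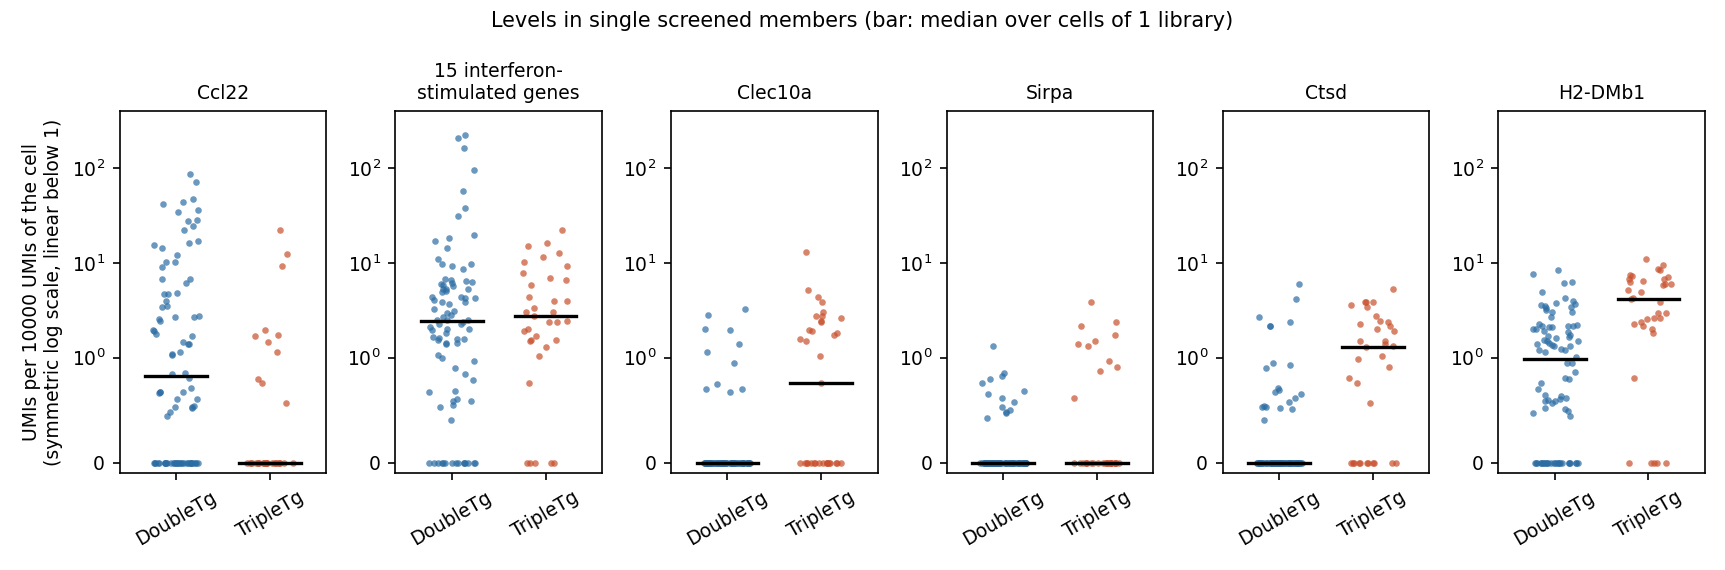
Level of 5 genes and of the summed 15 interferon-stimulated genes in each screened member (90 DoubleTg and 35 TripleTg cells), in UMIs per 10000 UMIs of the cell on a symmetric log scale, with bars at the medians over cells of 1 library. The interferon panel has near-equal medians (2.43 and 2.73) and a few DoubleTg cells far above them; H2-DMb1 is shifted upwards across the TripleTg cells.

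Promoters of 4 genes lower as sums in TripleTg are shown because they carry the core of the interferon-stimulated response element, searched on both strands as GAAA, any 2 bases and GAAA; overlapping matches are merged in the capitals. Such a match is in 3.44% of 32851 RefSeq promoters (GRCm38.p6) of 300 bases and in those of 8 of the 12 listed interferon-stimulated genes with an entry. Each is written 5′ to 3′ on the gene's strand: Isg15 at chr4:156200769-156201068 (minus), Ifit1 at chr19:34640639-34640938 (plus), Rsad2 at chr12:26456403-26456702 (minus) and Cxcl10 at chr5:92348840-92349139 (minus).
Isg15: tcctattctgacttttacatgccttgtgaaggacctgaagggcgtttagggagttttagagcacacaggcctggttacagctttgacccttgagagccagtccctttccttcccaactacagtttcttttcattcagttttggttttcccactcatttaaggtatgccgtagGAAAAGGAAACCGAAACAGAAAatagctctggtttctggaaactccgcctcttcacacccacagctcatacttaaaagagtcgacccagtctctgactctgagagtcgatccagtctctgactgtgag
Ifit1: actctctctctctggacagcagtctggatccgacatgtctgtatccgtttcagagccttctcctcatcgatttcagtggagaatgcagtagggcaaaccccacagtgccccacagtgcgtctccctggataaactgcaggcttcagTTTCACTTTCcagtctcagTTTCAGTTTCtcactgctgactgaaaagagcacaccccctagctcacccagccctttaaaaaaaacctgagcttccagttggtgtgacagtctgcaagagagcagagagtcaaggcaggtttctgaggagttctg
Rsad2: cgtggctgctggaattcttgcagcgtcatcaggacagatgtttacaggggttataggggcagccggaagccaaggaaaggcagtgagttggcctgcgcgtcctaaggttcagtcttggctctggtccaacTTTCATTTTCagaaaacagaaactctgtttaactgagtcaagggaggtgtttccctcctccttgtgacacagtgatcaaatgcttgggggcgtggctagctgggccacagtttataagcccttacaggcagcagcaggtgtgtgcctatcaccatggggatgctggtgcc
Cxcl10: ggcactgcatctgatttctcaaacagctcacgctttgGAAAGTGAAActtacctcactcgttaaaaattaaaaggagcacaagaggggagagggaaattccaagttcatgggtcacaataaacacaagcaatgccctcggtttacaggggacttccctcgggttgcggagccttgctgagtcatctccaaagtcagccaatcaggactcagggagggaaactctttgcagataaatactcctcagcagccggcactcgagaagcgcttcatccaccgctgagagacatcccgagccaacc
Isg15 held 3 overlapping matches, the first beginning 78 bases before the start, Ifit1 held 2, and Rsad2 and Cxcl10 1 each. These are matches of letters, not measured binding.

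Several immediate early genes were lower, and NF-kappaB genes mostly lay within 2-fold. Of 13 measured NF-kappaB genes, 0 were called higher and 1, the feedback inhibitor Tnip3, lower (130 to 48.4 CPM, -1.42), a share near the background. Nfkbie, an inhibitor of NF-kappaB, was at 86.6 and 156 CPM (0.85, 0.37 to 1.31). Nfkbia, the inhibitor that NF-kappaB itself induces, was at 2144 and 1263 CPM (-0.76, -0.91 to -0.62), and at 477 and 572 CPM in epithelial cells. Of 13 measured stress and immediate early genes, 6 were lower and 0 higher in the screened members, against 2 lower and 1 higher of 15 in all members. Zfp36, which destabilizes cytokine mRNA, was at 967 and 304 CPM (-1.67, -1.96 to -1.39), in 90 of 90 and 30 of 35 cells with medians of 8.41 and 2.64 per 10000, and was at 146 and 154 CPM in epithelial cells.

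Clec10a, Sirpa and some genes of lysosomes were higher in the screened TripleTg members. Clec10a, a C-type lectin of type 2 dendritic cells (chr11:70156197-70170834, plus strand, GRCm38), was at 17.1 and 134 CPM (2.98, 2.26 to 3.73), with a UMI in 11 of 90 and 18 of 35 cells and in 0.443% and 0.421% of epithelial cells. After 1 random thinning to 2000 UMIs it was in 0 of 90 DoubleTg cells and in 6 of 35 TripleTg cells; the 0 is a limit of the thinned depth, since 11 of the same 90 cells had a UMI at full depth. A second draw, over all members, kept it in 3 of 109 DoubleTg cells and 14 of 58 TripleTg cells, so these shares vary with the draw. Its neighbouring copy Mgl2 was at 239 and 231 CPM (-0.05, -0.41 to 0.29), in 38 and 12 cells. Sirpa, the inhibitory receptor of type 2 cells, had 15 UMIs in each library, which was 10.2 and 40.3 CPM (1.98, 0.84 to 3.11), in 14 and 11 cells. The transcription factors Zeb2, needed for monocytes and type 2 cells, and Cebpb, a myeloid factor, were at 55.2 and 164 CPM (1.57) and at 143 and 401 CPM (1.49); Cebpb was also at 268 and 485 CPM in epithelial cells.

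Of 14 measured lysosome and endocytosis genes outside the rule, 5 were higher and 0 lower, with a median of 0.74 (0.92 with Cd209a of the rule). In all members 2 were higher and 1 lower. The protease Ctsd was at 29.3 and 129 CPM (2.14, 1.51 to 2.77), in 21 of 90 and 24 of 35 cells, beside 658 and 581 CPM in epithelial cells. In all members, keratin-high cells included, the log2 ratio of Ctsd was 0.21, and it lay between -0.01 and 1.31 over the other settings tried on them. The protease Ctsl was at 2.22 in the screened members and -0.06 in all members, where the other settings gave -1.30 to 1.58. Ctsl was at 449 and 141 CPM in epithelial cells. Cd44, an adhesion receptor for hyaluronan, was at 85.3 and 253 CPM (1.57, 1.17 to 1.96), in 52 and 26 cells, beside 246 and 388 CPM in epithelial cells. Of the proliferation genes, 4 of 6 were called higher, but Top2a had 91.7%, Tyms 76.5% and Stmn1 52.8% of the TripleTg UMIs in 1 cell. Apoe, a macrophage lipoprotein gene, was at 130 and 753 CPM, with a UMI in 26 of 90 and 30 of 35 members and in 54.1% and 92.5% of epithelial cells. The highest members had 118 and 75.9 per 10000, and the part of free RNA in these values was not tested. Of the macrophage markers, the Fc receptor Fcgr1 of macrophages and monocytes had 4 UMIs in each library, Adgre1 had 5 and 0, and the macrophage list summed to medians of 1.83 (0 to 130) and 7.31 (0.971 to 115) per 10000, with a UMI of 11 and 8 of its 12 genes. The monocyte list summed to medians of 3.37 (0 to 46.5) and 10.6 (0 to 55.9). The part of these lists in the results was not tested. Wnt and beta-catenin genes gave 0 calls in either direction among 5 measured, with ratios between -0.75 and 0.50, and no gene of the HGF and Met list reached 20 UMIs in the screened members.

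**Figure D4:**
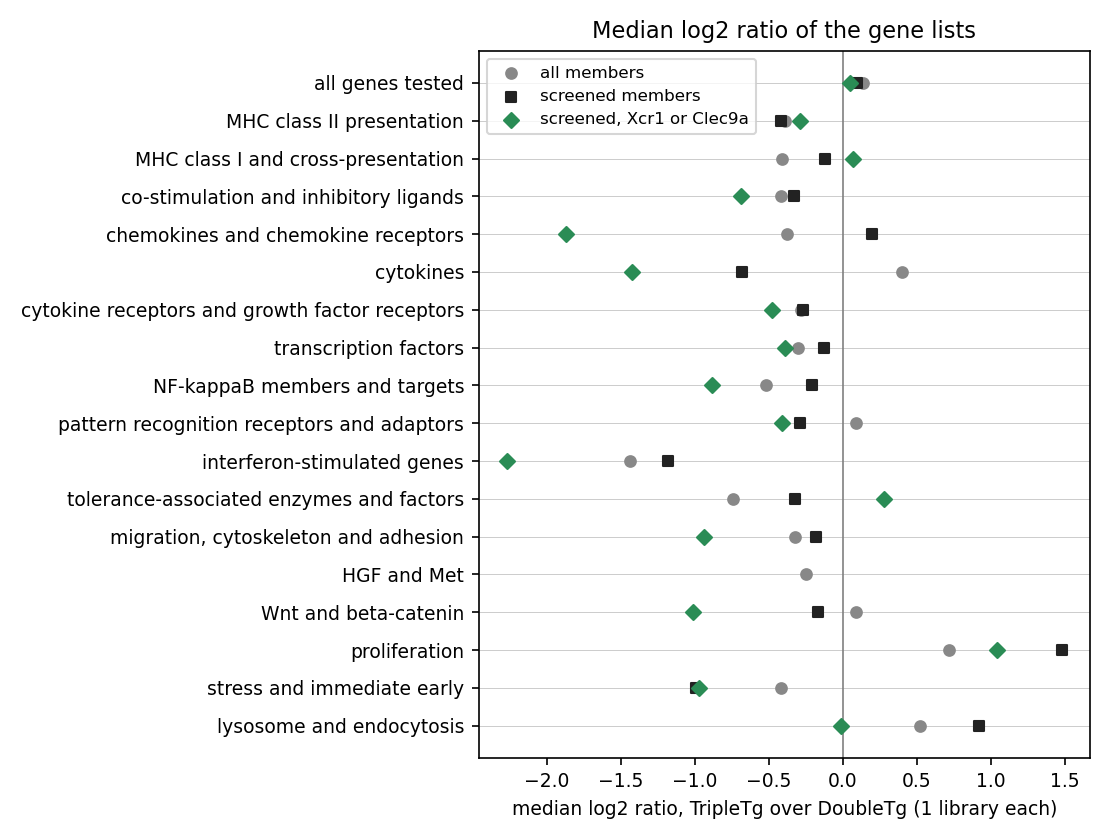
Median log2 ratio of TripleTg over DoubleTg for all genes measured and for the 17 gene lists, in all members (circles), screened members (squares) and screened members with Xcr1 or Clec9a (diamonds). The interferon list lies lowest in all 3 sets (-1.44, -1.18 and -2.27), and the lysosome list, which holds Cd209a of the rule, is at 0.52, 0.92 and -0.01 (0.41, 0.74 and -0.01 without it).

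Single subset genes and whole marker lists gave different pictures. The 12 genes of the cDC1 list summed to a median of 167 per 10000 UMIs in screened DoubleTg members (6.99 to 512) and 35.6 in TripleTg (1.93 to 412). Cst3, a protease inhibitor, was at 17847 and 14100 CPM and made up most of this sum. It was at 25933 and 26079 CPM in the cells with Xcr1 or Clec9a and at 13060 and 4190 CPM in the other screened members, so the list's sum reads Cst3 in the latter rather than the type 1 genes as a group. The 12 genes of the cDC2 list summed to medians of 18.9 (0 to 48.9) and 17.5 (4.01 to 43.7), so the type 2 list as a whole was alike. Xcr1 or Clec9a had a UMI in 31 of 90 screened DoubleTg members (34.4%, 24.7 to 45.2) and 13 of 35 in TripleTg (37.1%, 21.5 to 55.1), intervals that overlap widely. Cd209a or Clec10a had a UMI in 19 of 90 (21.1%, 13.2 to 31.0) and 19 of 35 (54.3%, 36.7 to 71.2). Clec9a and Cd209a belong to the rule, and Cd209a alone of the 5 genes admitted 0 DoubleTg and 3 TripleTg members, so both pairs of shares are a description. Neither pair was seen in 42 of 90 and 6 of 35 cells. Both pairs were seen in 2 and 3 cells. An Xcr1 UMI was in 0 of 7679 DoubleTg epithelial cells and in 5 of 6884 in TripleTg. These shares use genes of the rule and unequal depths, and at 2000 UMIs Xcr1 was in 12.2% and 8.57% of screened members.

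Among the cells with Xcr1 or Clec9a, many chemokine, cytokine and interferon-stimulated genes were called lower in TripleTg, several of them on few DoubleTg cells. The 31 DoubleTg and 13 TripleTg cells (545183 and 168448 UMIs) gave 3115 measured genes, with 8.64% higher and 7.22% lower. Lower were 8 of 12 chemokine genes, 3 of 5 cytokines, 7 of 10 interferon-stimulated genes, 3 of 13 NF-kappaB genes and 5 of 13 stress genes. The chemokine list also had 2 genes called higher, Cxcl2 (1.06) among them, and the cytokine Il1b was at 0.52. Nfkbia was at 2185 and 528 CPM (-2.05, -2.38 to -1.74), in 29 of 31 and 13 of 13 cells. Tnfaip3, an NF-kappaB inhibitor, was in 22 of 31 and 2 of 13 cells, at 189 and 35.6 CPM (-2.41, -3.89 to -1.24). Ebi3, a subunit of interleukin 27, had 48 UMIs in 13 of 31 cells and 0 UMIs in 13 TripleTg cells, a log2 ratio of -2.31 or lower with the TripleTg sum set to a floor of 3 counts. Ccl22 was in 18 of 31 and 6 of 13 cells (780 and 65.3 CPM, -3.58). Il12b had 265 and 0 UMIs, in 6 and 0 cells, with 52.8% of the DoubleTg UMIs in 1 cell. The top cell of each gene also held 60.8% of the DoubleTg UMIs of Ccl4, 63.4% of Cxcl9, 57.1% of Cxcl10, 78.6% of Ifit1 and 78.2% of Rsad2. The T cell chemokine Ccl5 fell from 1148 to 23.8 CPM, but 50.8% of the DoubleTg UMIs were in 1 cell and 7 of 31 cells had any. The interferon list had 80.4% of its 929 UMIs in 5 of the 31 cells.

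Higher in the TripleTg cells with Xcr1 or Clec9a were the immunoproteasome subunits Psmb8 (332 and 706 CPM, 1.09, 0.74 to 1.43, in 31 of 31 and 12 of 13 cells) and Psmb9 (119 and 309 CPM, 1.37, 0.82 to 1.92, in 24 and 9), which shape peptides for MHC class I. The remaining subunit Psmb10 was at 73.4 and 77.2 CPM (0.07, -0.95 to 1.01), less than 2-fold apart. H2-DMb1 was at 240 and 570 CPM there (1.25, 0.85 to 1.64). Ppt1, a lysosomal thioesterase of cDC1, was at 229 and 706 CPM (1.62), and Naaa, a lysosomal amidase of cDC1, at 106 and 279 CPM (1.39, 0.80 to 1.97). The transcription factor Irf8, on which cDC1 depend, was at 411 and 148 CPM (-1.47, -2.13 to -0.87), in 28 and 7 cells.

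In the 59 DoubleTg and 22 TripleTg screened cells without Xcr1 or Clec9a, 9.36% of 4265 genes were higher and 4.45% lower. Of 14 lysosome genes outside the rule, 8 were higher and 1, Cst3, lower (13060 and 4190 CPM), with a median of 1.23. Of 13 chemokine genes, 5 were higher and 2 (Ccl22 and Cxcl10) lower, with a median of 0.53, but the top cell of each gene held 95.6% of the TripleTg UMIs of Ccl17, 97.5% of those of Cxcl9 and 77.4% of those of Cxcl2. Of 9 interferon-stimulated genes 3 were higher and 3 lower (median -0.83), and of 7 cytokines 2 were higher and 1 lower (median 0.28). Of the higher genes of these lists, Irf7 had 85.7%, Ifi205 50%, Il10 84.2% and Osm 58.3% of the TripleTg UMIs in 1 cell. Of the lower interferon-stimulated genes, Ifit1 had 86.1%, Ifit2 94.4% and Rsad2 91.9% of the DoubleTg UMIs in 1 cell. H2-DMb1 was at 101 and 432 CPM (2.10, 1.66 to 2.53) and Ccl22 at 716 and 236 CPM (-1.60, -2.06 to -1.18), with 58.3% of the TripleTg Ccl22 UMIs in 1 cell and 41 of 59 and 5 of 22 cells having any. Psmb9 was at 89 and 44.2 CPM (-1.01, -2.19 to -0.02), Psmb10 at 55.4 and 118 CPM (1.09, 0.33 to 1.82) and Psmb8 at 321 and 339 CPM (0.08, -0.32 to 0.46), so the subunits did not move together. Whether the ratios differ between these groups of cells was not tested.

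Ranked by the ratio of members over macrophages of the same libraries, most of the leading genes were not named by the rule. The ranking took genes with at least 100 CPM in the members, so the C1q genes of the rule could not enter it. Against the 371 DoubleTg and 290 TripleTg MHC class II-high cells with C1q at or above the limit, the 10 genes with the highest smaller ratio among 985 were Ccl17, Tbc1d4, Ifitm1, Ccr7, Pkib, Serpinb9, Kdm4a, Napsa, Samsn1 and S100a4. This is a description, since the rule, which includes Ccr7, parted these cells. Tbc1d4, a Rab GTPase-activating protein, was at 801 CPM in DoubleTg members and 47.3 in C1q-high cells, and at 586 and 52.2 in TripleTg. Serpinb9, an inhibitor of granzyme B, was at 398 and 20 CPM in DoubleTg and 219 and 25.8 in TripleTg. Il7r, the interleukin 7 receptor, was at 428 CPM in DoubleTg members, 584 in the screened ones and 327 in C1q-high cells, and at 300.1, 495 and 275.6 in TripleTg. Csf1r, the growth factor receptor of macrophages, was at 33.8 CPM in DoubleTg members and 331 in C1q-high cells, and at 52.1 and 436 in TripleTg.

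Clustering of the 168 members gave 8 clusters, nearly all of 1 library, so a cluster may stand for its library rather than for a kind of cell. Cluster 2 (27 DoubleTg cells, led by P3h2, Lrrk2 and Gpr4) had Xcr1 in 77.8% and Irf8 in 96.3% of cells, and cluster 8 (11 TripleTg cells, led by Sept3, 2310031A07Rik and Cxx1a) had Xcr1 and Naaa in every cell; both are called cDC1-like from their markers. Cluster 1 held 33 TripleTg and 4 DoubleTg cells, was led by Slpi, C3 and Acp5, and had Clec10a in 56.8%, Csf1r in 56.8%, Lyz2 in 75.7%, Apoe in 86.5% and Flt3 in 18.9% of cells. Of the 12 cDC2 genes, a list that holds Cd209a of the rule, 6 were at least at 2 times the share of other members there. So were 3 of the 12 macrophage genes and 2 of the 10 monocyte genes. Cluster 5 (18 DoubleTg cells, led by Mmp12, Mgl2 and Cd207) had Mgl2 in every cell and Ccl22 in 94.4%. Cluster 6 (15 DoubleTg cells, led by Ifit1, Ccl4 and Ccl5) held 53.4% of the interferon list's UMIs in DoubleTg members. Cluster 3 (27 DoubleTg cells) was led by Prkcb, Pik3r6 and Ifitm1. Clusters 4 (Lgals7, Dapl1, Krt5) and 7 (Upk1a, 9530053A07Rik, Sbp) held 19 and 14 cells, all of them keratin- or collagen-high. Fscn1, the actin bundler of mature dendritic cells, was found in 1 of 90 and 3 of 35 screened members. Cluster 5 nonetheless had 9 of the 14 mature migratory genes in most of its cells and 5 at 2 times the share of other members, Ccl17 (88.9%) and Il4i1 (83.3%) among the frequent ones. It stayed unnamed because its leading genes include Mgl2 and Cd207 of other lists and 0 of the mature list among the first 10. That list summed to medians of 63.2 per 10000 in screened DoubleTg members and 19.7 in TripleTg. It holds Ccr7 of the rule, so these sums are a description, and the sum without Ccr7 was not taken. Ccr7 was at 2786 and 778 CPM in the screened cells with Xcr1 or Clec9a and at 3814 and 1866 CPM in the others. Clustered alone, each library again had an Xcr1-rich cluster, of 27 cells (77.8% with Xcr1) in DoubleTg and 11 (100%) in TripleTg, and a DoubleTg cluster of 4 cells had Xcr1 in 50% of them.

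**Figure D5:**
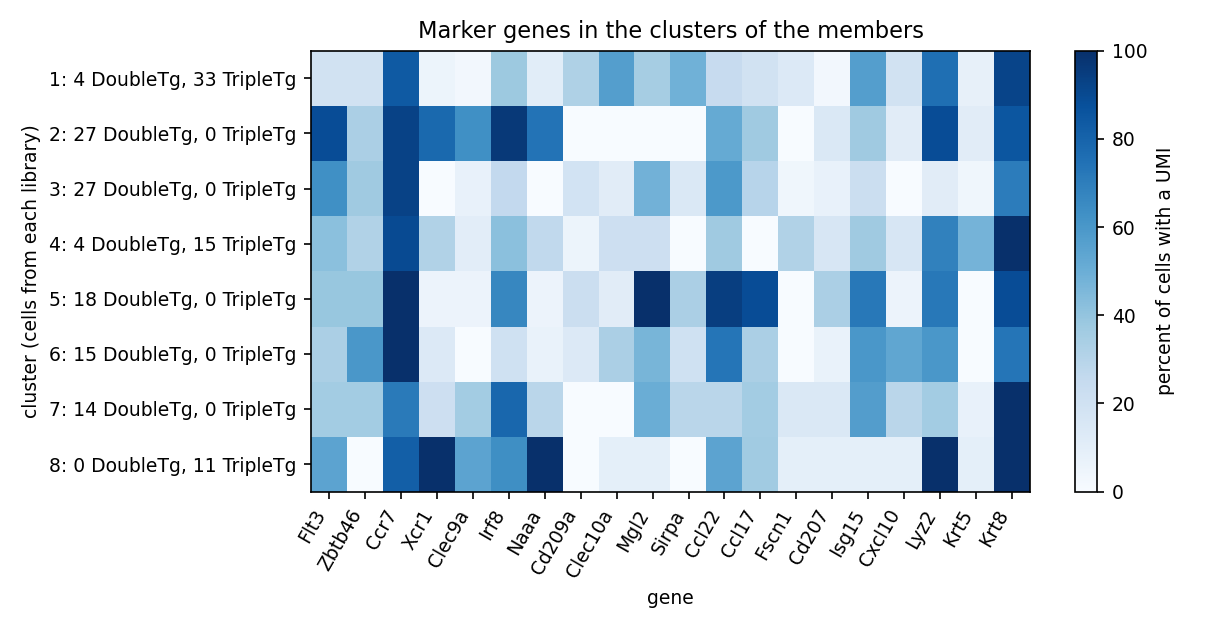
Share of cells with a UMI of 20 genes in the 8 clusters of the 168 members, with the cells from each library beside the cluster number. Xcr1 and Naaa are dark in clusters 2 and 8, which come from different libraries; Ccr7 is dark in all 8 clusters (71.4% to 100%).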

How the data were processed

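Libraries were 10x Genomics 3′ v3, 1 per genotype. The deposited values are whole UMI counts, which the authors made with Cell Ranger on mm10 with both transgenes added; the DoubleTg header names version 6.1.1 and the submitters' processing notes 6.0.2. The DoubleTg matrix had 12072 barcodes (302424122 UMIs), and the TripleTg matrix 9492 (229655259), all within the limits and equal in number to the cells the study kept after its filter, so it appears to be the filtered matrix. The limits left 10598 DoubleTg barcodes, more than the study kept. The members, lists and markers were chosen with earlier results of these data known.

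UMIs were summed over members per library. Log2 ratios used conditional binomial intervals, with sums under 3 set to 3, and genes with under 20 UMIs were left out. A call needed a 2-fold difference and a 95% interval beyond 0. On simulated data for all members, unchanged genes were called in 1.91% of 7605 cases. Genes named were those of the lists, the 10 with extreme ratios (at least 100 CPM, UMI in 10% of cells), and leading cluster genes. The 10 genes leading beside macrophages were named too, and Timd4 was added after its values were seen. Of all listed genes, 5 had no feature of that name. Clustering used 1000 variable genes, 15 components, 15 neighbours and resolution 1 (scanpy 1.11.5); TMM factors came from edgeR 4.0.16. Thinning was 1 random draw per set of cells. No doublets were removed in the main values. The values of 2 listed genes are not reported here.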

Additional observations from a re-analysis of the deposited data

How the results depend on the processing

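Main counts were 856 genes higher and 472 lower in TripleTg members, and 27 and 35 listed genes. At 2000 UMIs per cell 154 were higher and 99 lower, with 12 listed genes higher, and the medians of the interferon and tolerance lists turned to 0.31 and 0.16. With TMM factors 738 genes and 56 listed genes were lower. With a mean over cells the tolerance list was at 0.28 and Ido1 at 1.03, the opposite sign. With at least 2 UMIs of the dendritic genes 15 listed genes were higher and Il10 turned to -1.26. With genes of at least 5 UMIs 1304 were higher. Chosen after the data were seen, the screened members gave 464 higher and 245 lower, at 2000 UMIs per cell 116 and 81 (7 and 18 listed), and as a mean over cells 522 higher. Cells with Xcr1 or Clec9a gave 269 and 225, with 8 listed genes higher, the tolerance list at 0.28, the lysosome list at -0.01 and Ctsb at -0.34, all reversed in sign from all members. Without marked doublets 1141 genes were higher and 424 lower. The tolerance list had 11 measured genes in all members and 3 in the cells with Xcr1 or Clec9a, and the lysosome list 15 and 11. At 2000 UMIs per cell, too, fewer genes of the interferon and tolerance lists were measured. These list medians are therefore not of the same genes. Beyond this, the cause of the shifts and reversals was not tested. Without genes of the rule the medians of the lysosome, receptor and migration lists were 0.41, -0.20 and -0.07, with no change of sign. Thinned to 2000 UMIs, shares in DoubleTg and TripleTg members were 11.01% and 8.621% for Xcr1, 81.65% and 51.72% for Ccr7, 27.52% and 8.621% for Ccl22, and 2.752% and 24.14% for Clec10a. Resolution 0.5 gave 5 clusters. Requiring Ptprc and no UMI of Epcam, Krt8 or Krt18 left 1 and 0 members, so this gave no value. No paired analysis was possible because each genotype is 1 library. Depth limits genes under about 20 UMIs and shares in 35 TripleTg cells.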
